A study of Mus musculus with 2 samples.

Results

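Nuclear receptors are transcription factors that most often bind small fat-soluble ligands and, with them, short DNA motifs beside their target genes. The 44 receptor genes described here were taken by name from a fixed list and found, by gene identifier and symbol, in the gene tables of both libraries, among 43346 genes in all. They were described as 5 steroid receptors, 6 retinoid receptors, 3 receptors for thyroid hormone and vitamin D, 8 lipid-sensing receptors and 22 orphan receptors. Steroid receptors wait on chaperones of the HSP90 machine until a hormone arrives and then bind DNA as homodimers. Many other receptors, those for retinoic acid, thyroid hormone, vitamin D, fatty acids, oxysterols and bile acids, pair with a shared partner, the retinoid X receptor (RXR). Without ligand many of them hold corepressors at their targets, and ligand exchanges these for coactivators. In the developing foregut, retinoic acid signalling and the orphan receptor Nr2f2 (COUP-TFII) are known for roles in patterning and in the mesenchyme.

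The series holds RNA-seq of total RNA from whole stomachs of B6NCrl mouse embryos at embryonic day 15.5. It has 1 group of 2 libraries and no treated, mutant or control group. Replicate 1 pooled 78 embryos and replicate 2 pooled 62 embryos, with males and females mixed in each pool, and each library started from 10 ng of RNA over 200 nucleotides long. Every value is therefore an average over the cell types of the organ, in which fewer cells of a type and less RNA per cell cannot be told apart.

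The libraries held 43209506 and 44257493 expected counts on genes in replicates 1 and 2, of which the 44 receptors took 0.0933% and 0.0962%. The genes that mark stomach mesenchyme and muscle were all detected and had a median log2 ratio of 0.02 between replicate 2 and replicate 1. Genes known from neighbouring organs were detected: 10 exocrine pancreas genes summed to 8759 and 12065 TPM in replicates 1 and 2, and 10 liver genes to 2452 and 1250 TPM. TPM, the authors' measure of transcript abundance, is scaled by transcript length and by library, so that levels can be compared between genes. All 10 liver genes had ratios below 0 and all 10 pancreas genes ratios above 0, and 9 squamous epithelium genes had a median log2 ratio of -1.02.

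The receptors were broadly transcribed. At 1 TPM or more in both libraries, 35 of the 44 were detected (79.5%), beside 64.5% of 21474 protein-coding genes. The median receptor had 5.54 TPM in replicate 1 and 6.27 TPM in replicate 2, close to the medians of 5.70 and 5.72 TPM over protein-coding genes. By class, 2 of 5 steroid receptors, 6 of 6 retinoid receptors, 3 of 3 receptors for thyroid hormone and vitamin D, 8 of 8 lipid-sensing receptors and 16 of 22 orphan receptors were detected. A few genes carried most of the transcripts. The 5 highest receptors held 46.8% and 45.7% of the summed receptor TPM in replicates 1 and 2, and the 10 highest held 71.4% and 70.1%.

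**Figure D1:**
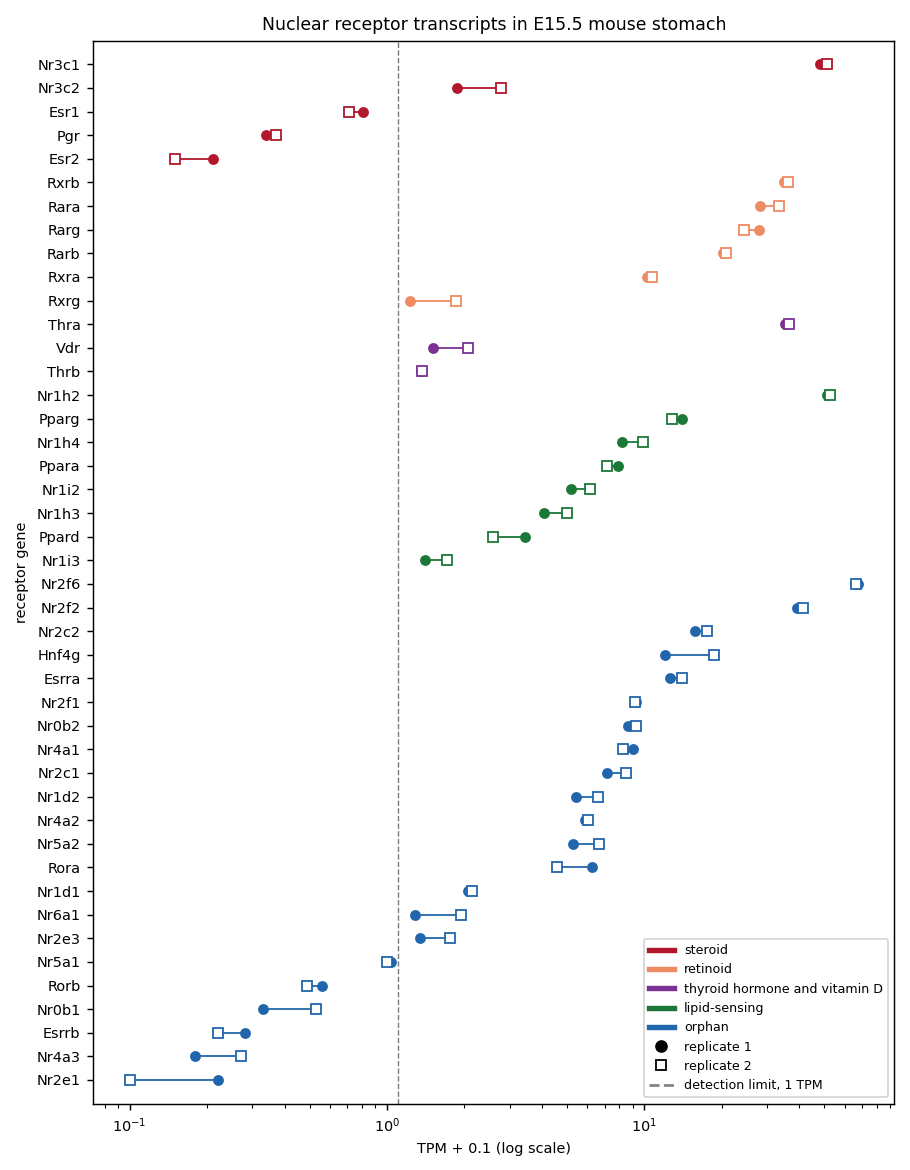
TPM + 0.1 of each of the 44 receptor genes on a log scale, by class and by mean level within the class, with a filled circle for replicate 1 and an open square for replicate 2. The dashed line marks 1 TPM; 35 genes lie above it in both libraries, and Nr2f6 is the highest at 67.4 and 66.3 TPM.

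The order of the levels was resolved for a minority of neighbouring receptors. Nr2f6 stood first, followed by Nr1h2, Nr3c1, Nr2f2, Thra, Rxrb, Rara, Rarg, Rarb and Nr2c2. When the receptors were ranked by mean TPM, 27 of the 43 pairs of neighbours had overlapping ranges over both libraries, and 16 did not overlap. The order of an overlapping pair was not resolved by this rule, even where it was the same within each library, as for Thra above Rxrb. Thra and Rxrb were the only neighbours among the first 10 that overlapped, while all neighbours from Nr2f1 to Ppara in the middle of the order did. With 1 pair of libraries, not overlapping is a description and carries no test.

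The sequences around the start sites of 5 receptor genes show how their promoters differ. Sequences came from RefSeq on GRCm38.p6 and run from 250 bases before to 50 bases after a start. Of the 44 genes 40 matched, and Nr3c1, Thra, Nr5a1 and Hnf4g had no entry. Rarb is shown first for a direct repeat of AGTTCA-like half-sites, the arrangement known as the retinoic acid response element of this gene. Nr2f6, the most abundant receptor, is shown for its GC boxes. Capitals mark matches to GTTCANNNNNAGTTCA in Rarb and to GGGCGG, on either strand, in Nr2f6.
Rarb, chr14:16575427-16575726, minus strand: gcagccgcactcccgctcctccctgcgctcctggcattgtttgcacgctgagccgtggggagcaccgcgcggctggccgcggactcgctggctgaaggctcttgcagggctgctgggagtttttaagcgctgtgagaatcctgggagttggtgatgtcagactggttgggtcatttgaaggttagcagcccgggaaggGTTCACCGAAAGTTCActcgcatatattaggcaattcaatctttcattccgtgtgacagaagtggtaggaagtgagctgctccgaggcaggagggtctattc
Nr2f6, chr8:71381903-71382202, minus strand: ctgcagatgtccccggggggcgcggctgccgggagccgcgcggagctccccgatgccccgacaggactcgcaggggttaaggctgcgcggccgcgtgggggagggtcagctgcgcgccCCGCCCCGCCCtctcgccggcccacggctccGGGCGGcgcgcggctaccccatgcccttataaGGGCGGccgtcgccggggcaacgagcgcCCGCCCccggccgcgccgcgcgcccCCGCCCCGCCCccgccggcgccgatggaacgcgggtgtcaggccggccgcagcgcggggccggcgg
The Rarb repeat began 52 bases before the RefSeq start. Searched on both strands, the motif GTTCANNNNNAGTTCA occurred in 11 of 32851 RefSeq promoters (0.0335%), and Rarb was the only receptor among the 40 that held it. Nr2f6 held 7 matches to GGGCGG, 2 pairs of which overlap by a base, and 53 CpG dinucleotides; GGGCGG occurred in 35.7% of promoters. A match describes letters in a window and is not evidence of a bound site.

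Pparg, the fatty acid receptor known from fat cells, has 3 starts in RefSeq and is shown with the first and the last, with GGGCGG in capitals; the middle one has 13 CpG dinucleotides. The first lies near the start of the transcript that encodes the shorter protein, and the last at that of the longer form.
Pparg, first start, chr6:115360894-115361193, plus strand: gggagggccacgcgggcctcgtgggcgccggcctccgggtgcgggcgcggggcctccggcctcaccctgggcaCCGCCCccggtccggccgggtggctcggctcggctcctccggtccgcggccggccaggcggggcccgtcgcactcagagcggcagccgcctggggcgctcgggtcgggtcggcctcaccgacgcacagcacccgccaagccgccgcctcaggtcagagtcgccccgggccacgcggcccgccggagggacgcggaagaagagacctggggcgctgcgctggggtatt
Pparg, last start, chr6:115421816-115422115, plus strand: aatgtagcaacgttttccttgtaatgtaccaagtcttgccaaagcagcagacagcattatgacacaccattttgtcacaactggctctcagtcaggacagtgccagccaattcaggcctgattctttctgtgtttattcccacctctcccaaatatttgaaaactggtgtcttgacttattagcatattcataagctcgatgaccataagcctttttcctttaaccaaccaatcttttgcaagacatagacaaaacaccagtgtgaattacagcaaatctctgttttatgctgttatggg
The first start has 44 CpG dinucleotides and 1 GGGCGG match, and the last has 2 CpG dinucleotides and no match. The only Pparg transcript with counts was the one that encodes 475 residues, which in M21 begins near the first start and held 100% of Pparg TPM in both libraries. The 505-residue form from the last start had 0 of 751 counts in replicate 1 and 0 of 691 in replicate 2. By counting error alone, with every count taken to tell the forms apart, that would allow 0.399% and 0.434%. Reads that match both transcripts do not tell them apart and were divided in the authors' quantification. How many counts were specific to 1 form is not known here, so these values do not bound the share.

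Nr0b2 (SHP) and Nr0b1 (DAX1), receptors that lack the DNA-binding domain and repress other receptors, are shown together because they were the only members with TATAAA, on the sense strand, beginning 40 to 20 bases before the start. Capitals mark that motif.
Nr0b2, chr4:133553126-133553425, plus strand: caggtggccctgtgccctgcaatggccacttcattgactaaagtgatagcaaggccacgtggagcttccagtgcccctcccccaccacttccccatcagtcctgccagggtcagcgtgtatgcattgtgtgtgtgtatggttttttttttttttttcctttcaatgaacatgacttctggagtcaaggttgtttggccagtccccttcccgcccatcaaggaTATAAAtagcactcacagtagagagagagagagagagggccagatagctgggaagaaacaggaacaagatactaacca
Nr0b1, chrX:86191525-86191824, plus strand: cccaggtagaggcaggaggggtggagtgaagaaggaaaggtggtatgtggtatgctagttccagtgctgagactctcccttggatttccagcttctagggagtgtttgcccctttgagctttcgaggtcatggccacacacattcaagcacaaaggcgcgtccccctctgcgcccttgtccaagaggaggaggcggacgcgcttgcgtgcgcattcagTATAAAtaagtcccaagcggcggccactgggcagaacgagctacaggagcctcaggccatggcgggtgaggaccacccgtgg
The motif began 28 bases before the start in Nr0b2 and 32 bases before it in Nr0b1, and 1.99% of all promoters held it in that window. Taking for each gene its start richest in CpG, the 40 members had a median of 18 CpG dinucleotides, against 8 over 27025 genes, and 45.0% of members had 20 or more, against 28.8% of genes. This choice favours genes with more starts, and the 40 members had 57 promoters where the 27025 genes had 32851. The comparison was not matched for the number of starts or for the type of gene. The 11 matched members at 10 TPM or more had a median of 21, and the 29 below had a median of 14. For Nr2f2 the RefSeq window lies at the start of its minor transcript. The half-site AGGTCA, which many receptors recognise, occurred in 12 of 57 member promoters (21.1%) and in 16.3% of all promoters.

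Among steroid receptors the glucocorticoid receptor Nr3c1 held nearly all transcripts. Nr3c1 had 47.9 TPM in replicate 1 and 51.0 TPM in replicate 2 (49.5 ± 2.22, SD, n = 2). The mineralocorticoid receptor Nr3c2, which binds aldosterone and also glucocorticoids, had 1.77 and 2.66 TPM, and the Nr3c1 level was 22.8-fold higher (log2 ratio of Nr3c2 to Nr3c1 -4.51 ± 0.35, SD, n = 2). An incomplete 612-base transcript held 60.4% and 54.9% of Nr3c2 TPM. On transcripts of at least 1000 bases Nr3c2 had 0.70 and 1.20 TPM, below the detection limit in replicate 1, and Nr3c1 was 49.96-fold higher. That cut keeps an incomplete 1891-base transcript of Nr3c1, which held 60.4% and 60.2% of its TPM. The complete 792-residue form of Nr3c1 had 15.6 and 15.5 TPM, and the 980-residue form of Nr3c2 had 0.32 and 0.59 TPM. The sex steroid receptors were all below 1 TPM in both libraries. The oestrogen receptor Esr1 had 0.71 and 0.61 TPM, the progesterone receptor Pgr had 0.24 and 0.27 TPM, and the second oestrogen receptor Esr2 had 0.11 and 0.05 TPM. The class median was 0.71 TPM in replicate 1 and 0.61 TPM in replicate 2.

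The apparatus of a glucocorticoid response was transcribed alongside Nr3c1. Of 11 chaperones and steroid enzymes 9 were detected, led by the chaperones Hsp90ab1 (1250 and 1230 TPM), Hsp90aa1 (674 and 654 TPM) and Ptges3 (434 and 427 TPM). Cyp19a1, which makes oestrogens, had 0 counts in both libraries. All 7 known glucocorticoid target genes were detected, with Tsc22d3 (GILZ) at 64.8 and 63.3 TPM, Sgk1 at 25.6 and 26.5 TPM and Fkbp5 at 18.7 and 19.2 TPM. None of either list was called different between the libraries; a call needed an adjusted p below 0.05 in an exact binomial test of the counts and a change of at least 2-fold, and 6.72% of 20918 tested genes passed it. Of 9 markers of steroid-making cells 4 were detected, and all 9 summed to 18.5 and 16.7 TPM. The detected ones were Inha (6.59 and 7.78 TPM), Cyp11a1 (4.45 and 3.43 TPM), Hsd3b1 (2.77 and 1.96 TPM) and Star (1.43 and 1.25 TPM). Of the others, Cyp21a1 (1.37 and 0.94 TPM), Inhbb (0.98 and 0.76 TPM) and Cyp11b1 (0.90 and 0.54 TPM) lay near the limit. Cyp17a1 had 0.02 and 0.07 TPM and Amh 0.02 and 0 TPM.

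Retinoid receptors formed the class with the highest median, 23.9 TPM in replicate 1 and 22.5 TPM in replicate 2. The retinoic acid receptors lay within a narrow range. Rara had 27.9 and 33.4 TPM, Rarg had 27.8 and 24.3 TPM, and Rarb had 20.1 and 20.7 TPM. Rara was higher in replicate 2 and Rarg in replicate 1, and the log2 ratio of Rarg to Rara was -0.23 ± 0.32 (SD, n = 2), within its spread. Of the RXR genes, Rxrb led with 34.9 and 36.1 TPM, 3.42-fold above Rxra (log2 ratio 1.77 ± 0.01, SD, n = 2), which had 10.1 and 10.6 TPM. Rxrg was low, with 1.13 and 1.76 TPM. Together the RXR genes summed to 46.1 and 48.5 TPM, and the RAR genes to 75.8 and 78.3 TPM.

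The partners that depend on RXR, 14 genes for receptors of retinoic acid, thyroid hormone, vitamin D, fatty acids, oxysterols, bile acids and xenobiotics, summed to 208 and 215 TPM. That was 4.51 and 4.44 times the summed RXR level in replicates 1 and 2. Of 13 genes of retinoid metabolism 12 were detected and none was called different, beside 6.72% of all tested genes. Among them were the retinaldehyde reductase Dhrs3 (91.5 and 95.3 TPM) and the retinoic acid-making enzyme Aldh1a2 (73.6 and 70.6 TPM).

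The transcript tables divided retinoid receptor genes among known forms. Rara transcripts that encode 462 residues held 62.1% and 63.9% of Rara TPM, and the 459-residue form held 37.4% and 35.7%. Rarg was divided between the 458-residue form, at 47.8% and 42.4%, and the 447-residue form, at 41.9% and 44.4%. These forms differ at the amino-terminal end, ahead of the DNA-binding domain. For Rxrb the 410-residue form held 51.6% and 62.7%, above the 524-residue form at 32.5% and 29.4%. Rarb had 1 transcript in the tables, which encodes 448 residues.

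Among the receptors for thyroid hormone and vitamin D, Thra was dominant. Thra had 35.0 and 36.5 TPM in replicates 1 and 2, and Thrb, which is the main form in liver and pituitary, had 1.26 and 1.27 TPM, 28.2-fold less. The vitamin D receptor Vdr had 1.41 and 1.96 TPM. The Thra transcript that encodes 492 residues, the form known as alpha2 that does not bind thyroid hormone, held 61.4% and 55.8% of Thra TPM. The hormone-binding alpha1 form of 410 residues held 29.9% and 34.0%. Both libraries thus had alpha2 above alpha1, at 21.5 and 20.4 TPM beside 10.5 and 12.4 TPM.

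Of 8 genes that make, break down or carry these hormones 4 were detected, beside 64.5% of protein-coding genes. None was called different, beside 6.72% of all tested genes. Among those detected were the transporter Slc16a10 (8.36 and 8.40 TPM) and the vitamin D 25-hydroxylase Cyp2r1 (1.89 and 1.98 TPM). Cyp24a1, an enzyme that breaks down vitamin D and is induced through Vdr, had 0 counts in both libraries.

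**Figure D2:**
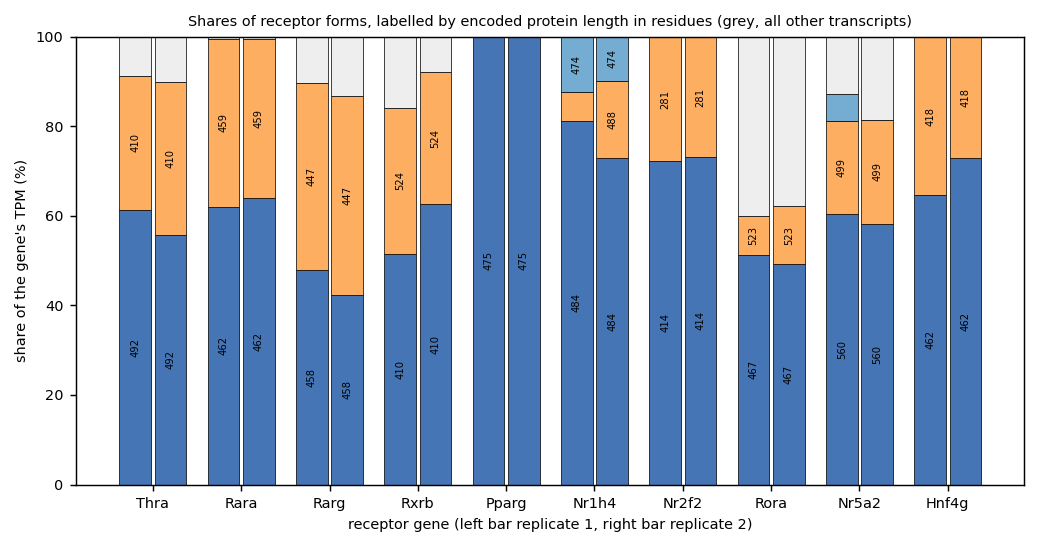
Share of each gene's TPM, in percent, held by transcripts grouped by the number of residues they encode (printed in the bars), for 10 receptor genes, with replicate 1 on the left and replicate 2 on the right of each pair; grey stands for all other transcripts. All Pparg TPM was assigned to the 475-residue form, and the 492-residue form of Thra exceeds the 410-residue form in both libraries.

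Of the lipid-sensing receptors, the oxysterol receptor Nr1h2 (LXR-beta) was the highest. Nr1h2 had 51.3 and 52.6 TPM, whereas Nr1h3 (LXR-alpha), known from liver and macrophages, had 3.97 and 4.90 TPM (log2 ratio of Nr1h3 to Nr1h2 -3.56 ± 0.19, SD, n = 2). All 6 LXR target genes were detected, and the highest were Lpcat3 (65.1 and 69.5 TPM), Srebf1 (66.0 and 67.0 TPM) and Abcg1 (10.6 and 9.59 TPM).

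The fatty acid receptors (PPARs) were at moderate levels, with Pparg first. Pparg had 13.8 and 12.7 TPM, Ppara, which drives fatty acid oxidation, had 7.80 and 7.03 TPM, and Ppard had 3.34 and 2.47 TPM. Only Ppard passed the adjusted p between libraries; the count ratios of Ppara and Pparg were -0.02 and -0.16 on the log2 scale. Pparg exceeded Ppara by 0.84 ± 0.02 on the log2 scale (SD, n = 2). All 10 PPAR target genes were detected and none was called different, beside 6.72% of all tested genes. The highest were the medium-chain acyl-CoA dehydrogenase Acadm, at 69.4 TPM in both libraries, the lipid droplet protein Plin2 (62.9 and 67.1 TPM) and the fatty acid carrier Fabp4 (60.2 and 67.6 TPM).

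The bile acid and xenobiotic receptors were present, but few of the 9 targets listed for them were. The bile acid receptor Nr1h4 (FXR) had 8.10 and 9.76 TPM, the pregnane X receptor Nr1i2 had 5.09 and 6.06 TPM, and the constitutive androstane receptor Nr1i3 had 1.31 and 1.61 TPM. Nr1h4 and Nr1i2 were detected on protein-coding transcripts alone, while Nr1i3 had 0.96 and 0.63 TPM on those alone. Of the exon bases of Nr1i3, 74.9% overlap Tomm40l on the other strand, which had 18.3 and 23.4 TPM. The strand setting of the counting is not given in the sources used here, so reads of the 2 genes cannot be told apart. Of 9 target genes 2 were detected, beside 64.5% of protein-coding genes. They were the bile acid exporter subunits Slc51a (14.6 and 20.1 TPM) and Slc51b (1.92 and 1.08 TPM). The list leaves out the receptor gene Nr0b2, also an FXR target, which was detected at 8.50 and 9.15 TPM.

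Of these 9 targets 6 had enough counts to be tested. Of those 6, 3 were called different between the libraries, all lower in replicate 2, beside 5.91% of all tested genes called lower. The other 9 pathway lists had no call, beside 6.72% of all tested genes called in either direction. At that share a single list this short would hold few calls or none. Fabp6, an ileal bile acid carrier, had 9.21 TPM in replicate 1 and 0.68 TPM in replicate 2 (log2 ratio -3.72). Abcb11, the bile salt export pump of liver, had 0.85 and 0.38 TPM (log2 ratio -1.82 by counts), and the liver cytochrome Cyp3a11 had 1.07 and 0.46 TPM (log2 ratio -1.24). These calls are by the exact binomial test, and Cyp3a11 was not called by the exact test of edgeR (adjusted p = 0.284). The 10 liver genes summed to 2452 and 1250 TPM in the same libraries, with 7 of 10 called lower, and their part in these differences was not tested.

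The orphan receptors held 40.6% and 41.2% of the summed receptor TPM and spanned the widest range of levels. The COUP-TF group, repressors and activators of organ development, was first, at 116 and 117 TPM in sum. Nr2f6 (EAR2) had 67.4 and 66.3 TPM (66.9 ± 0.834, SD, n = 2), which is the 89.1 percentile of protein-coding genes. Nr2f2, known from mesenchyme and veins, had 39.1 and 41.3 TPM, and its close relative Nr2f1 (COUP-TFI) had 9.18 and 9.10 TPM. Nr2f2 exceeded Nr2f1 by 2.14 ± 0.07 and Nr2f6 exceeded it by 2.87 ± 0.01 on the log2 scale (SD, n = 2). Nr2f6 shares 54.4% of its exon bases with Ocel1, on the other strand, which had 6.59 and 6.53 TPM. Rarb shares 34.1% with Top2b (42.8 and 48.9 TPM), and Nr2c2 shares 30.7% with Mrps25 (72.3 and 76.8 TPM), both also on the other strand and more abundant than the receptor. As for Nr1i3, reads of the bases shared by Nr2f6 and by Nr2c2 cannot be told apart without the strand setting. Their counts had a posterior SD of 11.2 and 10.2 for Nr2f6 and of 17.4 and 17.9 for Nr2c2. Rarb had whole counts with a posterior SD of 0 in both libraries, and Top2b had whole counts too. No reads were thus divided between Rarb and Top2b, whose overlap is that of M21 exons. The 414-residue form of Nr2f2 held 72.2% and 73.1% of its TPM, and the 281-residue form, which lacks the DNA-binding domain, held 27.8% and 26.9%.

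The testicular receptors, named for the organ where they were found, were both detected here too. Nr2c2 (TR4) had 15.6 and 17.4 TPM and Nr2c1 (TR2) had 7.03 and 8.35 TPM. Between libraries, Nr2c1 passed the adjusted p with a log2 ratio of 0.19, and Nr2c2 did not, at 0.03. Esrra, a regulator of mitochondrial genes, had 12.5 and 14.0 TPM, while Esrrb, known from embryonic stem cells, had 0.18 and 0.12 TPM.

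The early-response receptors of the NR4A group, which are induced by signals within minutes in many cells, differed widely in level. Nr4a1 (NUR77) had 8.89 and 8.16 TPM, Nr4a2 (NURR1) had 5.76 and 5.96 TPM, and Nr4a3 rested on 4 and 5 counts. Nr4a1 and Nr4a2 were thus detected in both pools and Nr4a3 in neither.

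Receptors known from gut, liver and pancreas epithelium formed another set. Hnf4g, a regulator of gut epithelial genes, had 11.9 TPM in replicate 1 and 18.5 TPM in replicate 2. Nr5a2 (LRH-1), known from exocrine pancreas, liver and gut, had 5.16 and 6.56 TPM. Nr0b2, an FXR target in liver, had 8.50 and 9.15 TPM. By counts, Hnf4g and Nr5a2 were higher in replicate 2 at adjusted p below 0.05 in the exact binomial test, and Nr0b2 did not pass, with a log2 ratio of 0.07. Nr5a1 (SF-1), the regulator of steroid-making cells, was just under the detection limit at 0.94 and 0.90 TPM, and Nr0b1, its partner in those cells, had 0.23 and 0.43 TPM on 12 and 23 counts.

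The receptors of the circadian clock lay near the receptor median or below it. Nr1d2 (REV-ERB-beta) had 5.32 and 6.48 TPM, and Nr1d1 (REV-ERB-alpha) had 1.96 and 2.04 TPM. Their opponent at shared DNA sites, Rora, had 6.17 and 4.47 TPM, and Rorb, a gene of brain and retina, had 0.46 and 0.39 TPM. Nr1d2 was higher and Rora lower in replicate 2. Of 14 other clock genes 13 were detected and none was called different, beside 6.72% of all tested genes. Nfil3 (24.7 and 26.4 TPM), Bhlhe40 (22.2 and 21.9 TPM) and Cry1 (21.01 and 21.83 TPM) were the highest. Nr1d1 overlaps the 3' part of Thra on the other strand over 263 exon bases, 8.55% of its own, and its counts had a posterior SD of 2.75 and 2.90, the same as those of Thra.

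The remaining orphans were near or below the limit. Nr6a1 (GCNF), known from germ cells and early embryos, had 1.19 and 1.84 TPM. The retinal receptor Nr2e3 had 1.24 and 1.65 TPM, but its 6 transcripts with a retained intron held 86.3% and 99.9% of that, and the gene had 0.14 and 0 TPM on protein-coding transcripts alone. Nr2e1 (TLX), of neural stem cells and retina, had 5 counts in replicate 1 and 0 in replicate 2.

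Related receptors also lie together in the genome. On chromosome 11 of mm10, Thra (98740638 to 98769006), Nr1d1 (98767932 to 98775333) and Rara (98927818 to 98974942) are neighbours, and on chromosome 14 their paralogues Rarb (16430839 to 16819156), Thrb (17660261 to 18038090) and Nr1d2 (18204054 to 18239127) are. The gene on chromosome 11 was the more abundant for the thyroid hormone receptors (Thra) and the one on chromosome 14 for the REV-ERB genes (Nr1d2, by 1.55 ± 0.16 on the log2 scale, SD, n = 2). Rara exceeded Rarb, with a log2 ratio of Rarb to Rara of -0.58 ± 0.16 (SD, n = 2).

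The cofactors through which receptors act were all present. All 13 coactivators were detected, led by Ncoa4 (99.6 and 94.6 TPM), the Mediator subunit Med1 (44.7 and 46.7 TPM) and the arginine methyltransferase Carm1 (31.8 and 40.3 TPM). All 9 corepressor genes were detected, led by Ncor1 (114 and 126 TPM), the histone deacetylase Hdac3 (91.7 and 89.2 TPM) and Gps2 (54.3 and 56.2 TPM). None of these 22 genes was called different between the libraries, beside 6.72% of all tested genes.

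**Figure D3:**
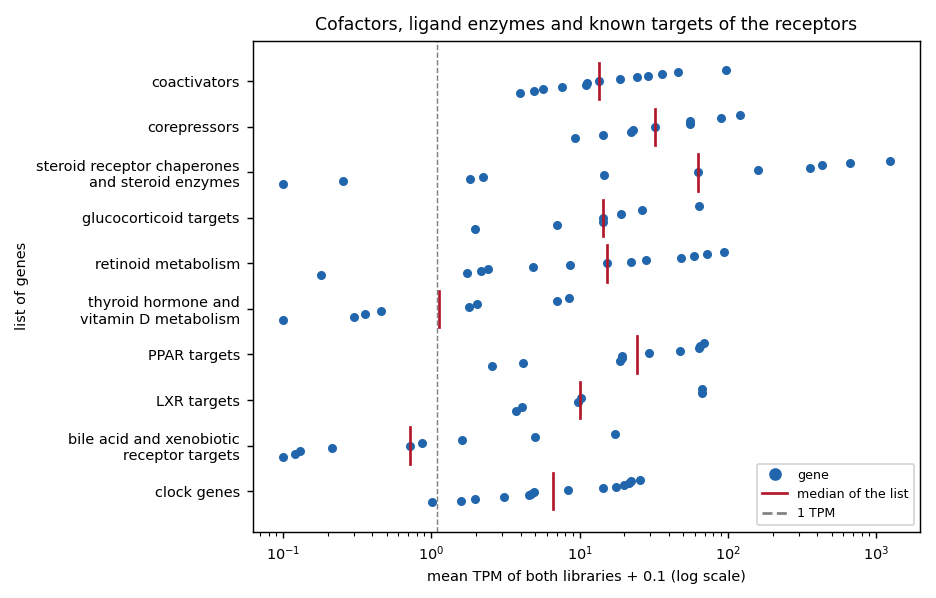
Mean TPM of both libraries + 0.1, on a log scale, for each gene of 10 lists of receptor cofactors, ligand enzymes and known targets, with a red bar at the median of each list and a dashed line at 1 TPM. Coactivators and corepressors all lie above 1 TPM, whereas 7 of 9 bile acid and xenobiotic receptor targets were not detected at that level in both libraries.

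No receptor was called different between the pools. Of 42 receptors with at least 10 counts in sum (Nr2e1 and Nr4a3 had fewer), 0 were called higher and 0 lower in replicate 2 by the exact binomial test, beside 0.808% and 5.91% of all tested genes. At adjusted p alone, without the limit on fold, 11 of the 42 passed (26.2%), beside 32.0% of all tested genes; 7 were higher, beside 15.2% of all genes, and 4 lower. Further, 16 passed at an unadjusted p below 0.05, beside 40.1%. The exact binomial test counts sampling error only. With a dispersion estimated from these libraries, the exact test of edgeR called 0 receptors at adjusted and 0 at unadjusted p below 0.05, beside 3.28% and 6.89% of all genes. That dispersion comes from the difference between the same libraries, so these 0 calls do not show that the receptors were alike. These tests compare the pools of embryos, not conditions.

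The tested receptors all differed by less than 2-fold between the pools, though the median receptor differed somewhat more than the median gene. Their log2 ratios, replicate 2 over replicate 1 throughout, had a median of 0.04 and ran from -0.98 (Esr2, on few counts) to 0.87 (Nr0b1). The median absolute log2 ratio was 0.19, beside 0.15 over all tested genes and 0.12 over protein-coding genes, and 27 of 42 ratios were above 0, beside 49.4% of all genes.

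Hnf4g had the smallest adjusted p of the family. It had 806 counts in replicate 1 and 1262 in replicate 2, a log2 ratio of 0.60 (95% interval 0.48 to 0.73, adjusted p = 1.51e-19, exact binomial test). In the same libraries 10 of 10 exocrine pancreas genes had ratios above 0, with a median of 0.48 and none called, and their part in the Hnf4g difference was not tested. Nr3c2 had a log2 ratio of 0.71 (95% interval 0.36 to 1.07, adjusted p = 0.00026, exact binomial test). Rara stood at 0.22 and Rarg at -0.27, with adjusted p of 1.48e-06 and 3.54e-08 in the exact binomial test. The other receptors past the adjusted p were Nr5a2, Nr1d2, Nr1h4 and Nr2c1, with ratios of 0.19 to 0.26, and Rora, Nr2f1 and Ppard, with ratios of -0.27, -0.27 and -0.37. The 7 higher ratios depend on the scaling: with library sizes from the spike-ins, which moved the median of all genes to -0.68, Nr3c2 stood at 0.03, Hnf4g at -0.076, and Rara, Nr5a2, Nr1d2, Nr1h4 and Nr2c1 between -0.49 and -0.42, all above that median.

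**Figure D4:**
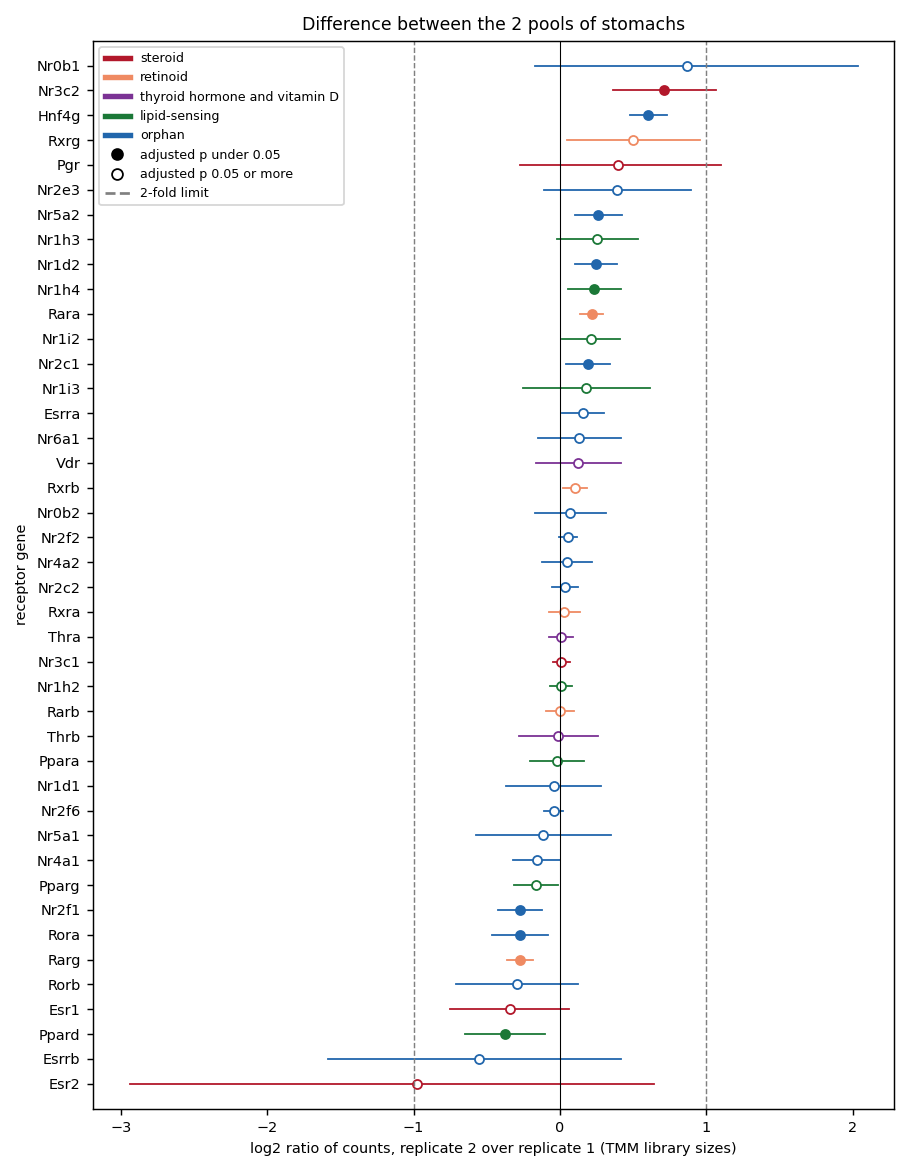
Log2 ratio of counts, replicate 2 over replicate 1 with TMM library sizes, for the 42 tested receptors, with exact 95% intervals; filled points have an adjusted p below 0.05 and the dashed lines mark 2-fold changes. No point is both filled and beyond a dashed line, and the interval is widest for Esr2.

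For a few receptors the TPM difference came with a different division among short transcripts. Vdr had a TPM log2 ratio of 0.48 but a count ratio of 0.13; a 389-base transcript held 21.03% of its TPM in replicate 2 on 3.71 counts and none in replicate 1. Nr6a1 had ratios of 0.63 by TPM and 0.13 by counts, with 25.2% of its TPM in replicate 2 on a 238-base transcript with 2 counts. Nr2f1 had ratios of -0.01 by TPM and -0.27 by counts. For Nr3c1 a 1891-base transcript with an incomplete coding sequence held 60.4% and 60.2% of TPM but 34.0% and 35.0% of counts, and the complete 792-residue form held 64.9% and 62.5% of counts. Of 32 receptors with at least 100 counts in each library, 10 had 1 transcript at 90% or more of TPM in both, and 9 had a transcript whose share differed by 10 percentage points or more between libraries, against 5 when shares of counts were used.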

How the data were processed

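Per the labels, total RNA was extracted with a mirVana kit, the fraction over 200 nucleotides was kept, and spike-ins were added. The authors deposited a gene and a transcript table per library. Per the file headers, these hold expected counts, in which reads matching several features are divided among them, and TPM and FPKM scaled by effective length, each also as a posterior mean with a posterior SD of the count; the transcript tables deposited by the authors also give each transcript's share of gene TPM in percent. Their aligner, quantifier and strand setting are not given in the sources used here.

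Symbols and mm10 coordinates came from GENCODE M21 and matched 42462 of 43346 genes. Residues encoded were counted from M21. Members and lists were chosen with earlier results of these data known. All members are named or counted; of each pathway list the 3 highest by mean TPM and each gene called different are named, except a few genes that are not reported here; Cyp19a1, Cyp24a1 and the named markers of steroid-making cells were added after their values were seen. Replicate 2 was compared with replicate 1 on expected counts rounded to whole numbers, with TMM sizes (edgeR 4.0.16) and an exact, two-sided binomial test, Benjamini-Hochberg adjusted over 20918 genes with at least 10 counts in sum, called at adjusted p below 0.05 and 2-fold, with a prior count of 0.5 in the ratio. The test was tried on simulated counts with counting error only, the error it assumes. That trial therefore does not show how often it calls genes that differ by other spread between pools. The labels call the libraries biological replicates. Reads carry no molecular identifiers, so intervals (95%, exact) and the limit of 3 counts for 0 cover counting error only. Spike-ins took 1.88% and 3.00% of counts in replicates 1 and 2. Alternatives used DESeq2 1.42.0 size factors, library totals, spike-in sizes, other count minimums, FPKM, posterior means and the edgeR exact test.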

Additional observations from a re-analysis of the deposited data

How the results depend on the processing

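The number of receptors detected lay between 27 (at 2 TPM) and 38 (at 1 CPM), with 29 at 1 FPKM and 33 both on protein-coding transcripts and on transcripts of at least 1000 bases, these last 2 chosen after seeing the data. Class medians over both libraries, 0.66, 23.2, 1.69, 6.49 and 5.88 TPM for steroid, retinoid, thyroid hormone and vitamin D, lipid-sensing and orphan receptors, became 0.45, 16.0, 1.16, 4.49 and 4.06 in FPKM. With posterior mean TPM they were 0.92 for steroid, 2.31 for thyroid hormone and vitamin D, and 6.65 for lipid-sensing receptors. Using 1 library, they lay between 0.61 and 0.71, 22.5 and 23.9, 1.41 and 1.96, 6.45 and 6.55, and 5.54 and 6.22 TPM.

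Sizes from the spike-ins shifted the median log2 ratio of all genes to -0.68; 4 receptors (Ppard, Esr1, Esr2 and Esrrb) were then called lower, and 36 passed the adjusted p alone, where the edgeR exact test passed 0 and the reported test 11. Of all genes, 169 were called higher and 1237 lower. These became 56 and 3448 with spike-in sizes, 84 and 771 at a minimum of 50 counts, 94 and 326 over genes with whole counts, and 45 and 642 with the edgeR exact test. The minimum and the whole counts leave fewer genes to test; for the other settings the cause was not tested. With spike-in sizes none of the 7 receptors higher at adjusted p stayed so. Nr5a2, Nr1d2, Nr1h4, Rara and Nr2c1 turned to -0.42, -0.43, -0.45, -0.46 and -0.49, past the adjusted p, while Hnf4g (-0.076) and Nr3c2 (0.03) did not pass. Ratios between related receptors kept their sign under every setting run, including transcripts of at least 1000 bases, which was added after seeing the data. No paired analysis was possible because the series has 1 group.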
